A study of Homo sapiens with 8 samples.

Results

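Kallikreins and the membrane-anchored serine proteases of the epidermis were followed through 10 named genes in HaCaT, a human keratinocyte line that grows without limit. They are the kallikreins KLK5, KLK6, KLK7, KLK8, KLK10 and KLK11, the trypsin gene PRSS3, the matriptase gene ST14, the prostasin gene PRSS8, and SPINT1, which encodes the inhibitor HAI-1. All 10 were found by symbol among the 19775 genes named on the arrays, each read by its brightest single-symbol probe set. KLK5, KLK6, KLK11 and PRSS8 had 1 such probe set and the other 6 genes had more, which served as a check.

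Expression was measured on 8 Affymetrix arrays, 1 for each group. In 6 groups an adenovirus had brought in LacZ, which served as control, or a mutant of the GTPase HRAS: G12V is always active, and N116Y blocks the cell's own RAS. Each of the 3 vectors was used without TGF-beta and with TGF-beta3, given for 24 h at 5 ng/ml. The other 2 groups had been transfected with a control siRNA or with an siRNA against p53, without an adenovirus and without TGF-beta. All groups were cultures of the same cell line, the adenovirus controls also carried a virus, and nothing in the labels separates cultures within a group, so the spread between arrays may be technical.

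Kallikreins are secreted serine proteases, made as inactive precursors and activated by cutting. In the upper epidermis KLK5 and KLK7 cut the proteins that hold corneocytes together, so that the outermost cells can be shed. Matriptase and prostasin act on the cell surface in a shared activation cascade, which HAI-1 restrains.

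The share of probe sets at or above 50, after scaling, was 28% to 29.9% across arrays. The actin control probes, set as 3' over 5' signal, gave 1.16 to 1.39 on the 6 adenovirus arrays but 3.68 with control siRNA and 4.01 with p53 siRNA, so signals of the siRNA arrays are set only against each other. Keratinocyte markers fitted the label: 8 of the 12 listed ones were measured, KRT5, KRT14, ITGA6, ITGB4, DSP, DSG3, LAMB3 and SFN, and all 8 were at 213 or more on every array. Of the markers of other cell types, COL1A1 and COL3A1 of 7 measured fibroblast markers and MITF of 4 melanocyte markers reached 50 on any array, as did 0 of 3 leukocyte and 0 of 4 endothelial ones. MITF was at 64.4 or more on all 8 arrays. COL3A1 read 107.2 and 144.1 on the HRAS N116Y arrays, against 17.8 or less on the other adenovirus arrays. The part of COL3A1 and MITF in the results was not tested. COL1A1 moved with the titles' TGF-beta state, from 45.0 to 164.5 in LacZ cells, from 39.7 to 287.6 in HRAS G12V cells and from 50.8 to 252.9 in HRAS N116Y cells, and its part in the results was not tested. The source names of these 6 samples give the opposite TGF-beta state to the titles and the TGF-beta field, which give the same state and were used. If the source names were right, every direction given for TGF-beta3 would turn.

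The HRAS probe set read 287.0 and 315.7 on the LacZ arrays, 86.1 and 108.8 on those of HRAS G12V, and 58.1 and 67.1 on those of HRAS N116Y. No label says whether it covers the viral insert, so its level does not check the vectors. The knockdown of p53 itself was not analysed here.

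The 6 kallikrein members lie on chromosome 19, in the order KLK5, KLK6, KLK7, KLK8, KLK10 and KLK11 in the RefSeq gene table, with KLK9 between KLK8 and KLK10. PRSS3 lies on chromosome 9, ST14 on 11, PRSS8 on 16 and SPINT1 on 15. RefSeq promoter windows were found for 7 of the 10 members, and no window was at hand for KLK8, ST14 and PRSS8. The sequences shown are the 250 bases before the start (GRCh38.p14) of KLK5, KLK6 and PRSS3, which passed the test for TGF-beta3, and of KLK7, which passed it between the RAS vectors. KLK5 is chr19:50953039-50953288, KLK6 is chr19:50969592-50969841 and KLK7, the most upstream of 3 windows, is chr19:50984065-50984314, all on the minus strand, and PRSS3 is chr9:33795311-33795560 on the plus strand. Each is written 5′ to 3′ on the strand of the gene.
KLK5: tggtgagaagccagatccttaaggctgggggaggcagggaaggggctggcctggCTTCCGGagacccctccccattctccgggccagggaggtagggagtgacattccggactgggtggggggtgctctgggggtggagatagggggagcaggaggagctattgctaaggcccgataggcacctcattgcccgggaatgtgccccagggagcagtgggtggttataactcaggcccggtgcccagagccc
KLK6: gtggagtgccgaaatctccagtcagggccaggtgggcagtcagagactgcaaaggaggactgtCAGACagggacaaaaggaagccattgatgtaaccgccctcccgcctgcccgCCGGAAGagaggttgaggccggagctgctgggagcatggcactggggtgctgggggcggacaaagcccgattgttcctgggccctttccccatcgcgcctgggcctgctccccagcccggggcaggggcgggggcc
KLK7: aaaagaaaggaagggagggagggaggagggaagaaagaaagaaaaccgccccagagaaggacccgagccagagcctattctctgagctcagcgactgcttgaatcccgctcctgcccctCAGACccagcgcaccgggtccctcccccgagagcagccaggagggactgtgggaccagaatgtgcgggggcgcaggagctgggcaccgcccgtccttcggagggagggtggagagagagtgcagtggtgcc
PRSS3: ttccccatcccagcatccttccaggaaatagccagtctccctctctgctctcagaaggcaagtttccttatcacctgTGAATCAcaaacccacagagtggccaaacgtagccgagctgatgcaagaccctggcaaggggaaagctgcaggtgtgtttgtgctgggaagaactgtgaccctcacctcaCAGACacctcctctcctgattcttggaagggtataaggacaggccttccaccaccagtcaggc

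Capitals mark matches, on either strand, to 3 motifs: TGANTCA, bound by AP-1, CAGAC, bound by SMAD proteins, and CCGGAAG, bound by ETS factors. Positions count from the start, with -1 the base just before it, and give the first base of a match. PRSS3 held TGANTCA at -173, as TGAATCA and so not as the strict AP-1 site, and CAGAC at -63. KLK6 held CAGAC at -187 and CCGGAAG at -136, KLK5 held CCGGAAG on the reverse strand at -196, and the KLK7 window shown held CAGAC at -131. The other 2 KLK7 windows, which overlap it in part, held none of the 3 motifs. Of all 35116 RefSeq windows of this length, 6.57% held TGANTCA, 38% CAGAC and 8.52% CCGGAAG. These matches describe the letters in the windows, and binding was not measured. Which of the starts of PRSS3 or KLK7 the cells used was not measured either.

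The first comparison asked what TGF-beta3 did to these genes, averaged over the 3 vectors. KLK5, KLK6, PRSS8 and PRSS3 rose, by 1.44-fold, 1.44-fold, 1.51-fold and 2.05-fold, and no member fell. KLK7, KLK8, KLK10, ST14 and SPINT1 did not pass the test, and KLK11 was too dim to be tested. The test was limma's, in a model of vector plus TGF-beta over the 6 adenovirus arrays, with an adjusted p under 0.05 taken as a rise or a fall. Of 8982 genes tested 1466 rose and 1567 fell, 16.3% and 17.4%, and the 4 rising and 0 falling of 9 tested members are read against these shares.

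KLK5, a trypsin-like kallikrein that can activate other kallikreins, read 2132, 2401 and 3430 on the untreated arrays of LacZ, HRAS G12V and HRAS N116Y. With TGF-beta3 it read 3750, 3470 and 4036 in the same order. The 3 treated arrays lay above the 3 untreated ones, although the treated HRAS G12V array was only just above the untreated HRAS N116Y array. The log2 change was 0.53 ± 0.13 SE (adjusted p = 0.00951). Within LacZ, HRAS G12V and HRAS N116Y cells the log2 ratio was 0.815, 0.532 and 0.235, the last being the vector whose untreated level was the highest. Without the LacZ pair of arrays the log2 change was 0.383 and the call was lost (limma adjusted p = 0.0509).

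KLK6 is the neighbour of KLK5 and also a trypsin-like kallikrein. Its untreated signals for LacZ, HRAS G12V and HRAS N116Y were 85.4, 81.4 and 127.5, and with TGF-beta3 it read 122.1, 126.2 and 170.1. Every vector gave a higher signal with TGF-beta3, but the untreated HRAS N116Y array lay above both treated arrays of the other vectors. The log2 change was 0.52 ± 0.15 SE (adjusted p = 0.0229), with log2 ratios of 0.516, 0.633 and 0.416 for LacZ, HRAS G12V and HRAS N116Y. The call was lost without the LacZ pair (limma adjusted p = 0.101) and without the HRAS G12V pair (limma adjusted p = 0.135), each of which leaves 4 arrays.

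PRSS8 encodes prostasin, which is tethered to the outer cell membrane. Its signals without TGF-beta3 were 98.5, 99.0 and 118.5 for LacZ, HRAS G12V and HRAS N116Y, and with it 137.0, 166.5 and 173.2. Treated and untreated arrays did not overlap. The log2 change was 0.59 ± 0.15 SE (adjusted p = 0.0113), and the 3 vectors had log2 ratios of 0.476, 0.75 and 0.548. Without the HRAS G12V pair it was 0.512 and did not pass (limma adjusted p = 0.0883).

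KLK5 and PRSS8 were the 2 of 9 tested members whose treated arrays all lay above the untreated ones, a pattern found in 19.4% of the genes tested. A higher signal with TGF-beta3 in each of the 3 vectors was seen for 5 of 9, KLK5, KLK6, KLK8, PRSS8 and SPINT1, against 30.3% of the genes tested. No member was lower in each of the vectors, against 31.7%.

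**Figure D1:**
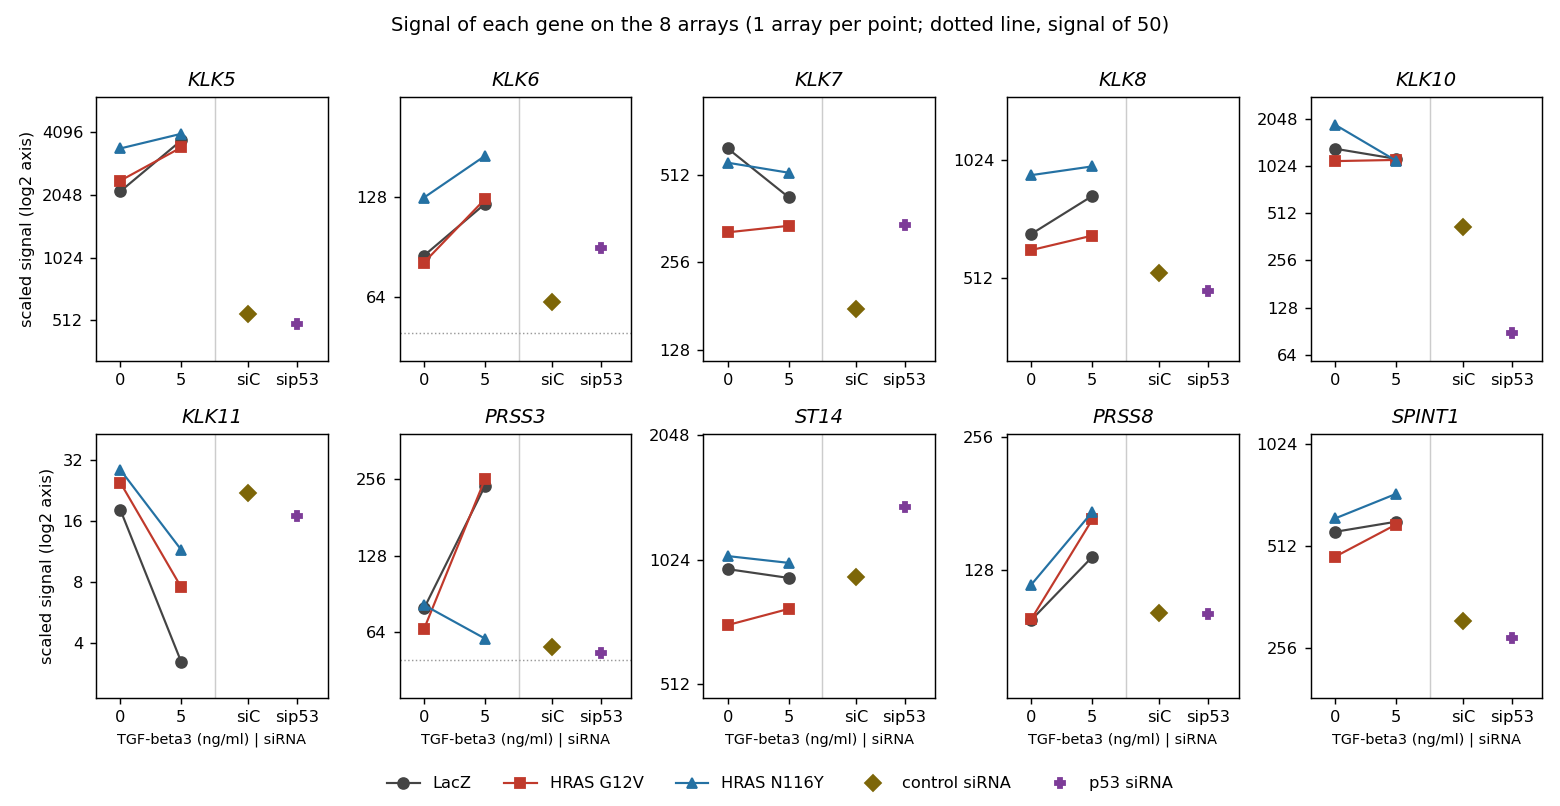
Scaled signal (log2 axis, its range set for each gene) of each of the 10 genes on the 8 arrays, with 1 point for 1 array. Lines join the arrays of a vector at 0 and 5 ng/ml TGF-beta3, siC and sip53 are the siRNA arrays, and the dotted line is a signal of 50. PRSS3 goes from 79.4 to 240.0 with LacZ and from 65.9 to 255.2 with HRAS G12V, but from 81.9 to 60.5 with HRAS N116Y.

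PRSS3 encodes mesotrypsin, a trypsin that resists common trypsin inhibitors. Without TGF-beta3 its signals were close in the 3 vectors, at 79.4, 65.9 and 81.9 for LacZ, HRAS G12V and HRAS N116Y. With TGF-beta3 it read 240.0, 255.2 and 60.5. LacZ and HRAS G12V cells thus had 3.02-fold and 3.87-fold higher signals with the cytokine, and HRAS N116Y cells a 1.35-fold lower one. Under TGF-beta3, HRAS N116Y was 3.97-fold below LacZ and 4.22-fold below HRAS G12V, single arrays in each case. The difference between the vectors in their response was not tested, because the full model leaves no residual degrees of freedom.

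The averaged rise of PRSS3 (log2 change 1.04 ± 0.36 SE, limma adjusted p = 0.0442) is therefore a mean of unlike responses. Its residual SD of 0.912 was well above the median of 0.152 over all genes. In limma a gene's variance is drawn toward that of other genes, so this SE and p-value understate the spread of PRSS3 itself. Without the HRAS N116Y pair the log2 change was 1.78 (limma adjusted p = 3.89e-06), and without the HRAS G12V pair it was 0.579 (limma adjusted p = 0.0681). The other PRSS3 probe set read 69.8, 55.6 and 49.7 untreated and 211.9, 211.5 and 38.7 treated in LacZ, HRAS G12V and HRAS N116Y, the same pattern. Both probe sets carry the suffix _x_at, by which the maker marks probes that can also hybridise to other sequences. Trypsin genes are closely alike, so the reading of PRSS3 is uncertain in this respect. PRSS2, another trypsin gene, is read by a probe set of its own. It went from 25.9 to 73.4 in LacZ cells, from 25.6 to 65.1 in HRAS G12V cells and from 15.3 to 18.2 in HRAS N116Y cells. Signal shared between the 2 genes cannot be told apart.

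The members that did not pass ranged from a lower to a higher estimate. KLK10, which has been studied as a gene silenced in some tumours, read 1329, 1107 and 1893 untreated and 1144, 1126 and 1114 treated in the same order of vectors. The treated arrays lay close together, and the untreated HRAS N116Y array stood above the rest. Its log2 change was -0.32 (95% interval -0.636 to -0.001, adjusted p = 0.111), and it depended on which arrays were used. Without the HRAS G12V pair KLK10 fell by 0.49 and passed (limma adjusted p = 0.0328), and without the HRAS N116Y pair its log2 change was -0.095 (limma adjusted p = 0.449). KLK7, the chymotrypsin-like kallikrein of the stratum corneum, had a log2 change of -0.20 (95% interval -0.499 to 0.101, adjusted p = 0.284).

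KLK8, known as neuropsin, had a log2 change of 0.17 (95% interval -0.068 to 0.414, adjusted p = 0.247) on the probe set used. The other probe set of KLK8 read 135.7, 102.4 and 188.1 untreated and 214.8, 149.1 and 241.6 treated, and there the log2 change was 0.522 and passed (limma adjusted p = 0.0153). The call for KLK8 thus depends on the probe set. SPINT1 had a log2 change of 0.22 (95% interval -0.023 to 0.461, adjusted p = 0.147), and with its probe sets averaged it had 0.294 and passed (limma adjusted p = 0.0449). ST14, whose protein is the main target of HAI-1, had 0.001 (95% interval -0.235 to 0.238, adjusted p = 0.994).

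KLK11 stayed under a signal of 50 on all 8 arrays. It read 18.2, 24.8 and 28.7 untreated and 3.2, 7.5 and 11.5 with TGF-beta3 in LacZ, HRAS G12V and HRAS N116Y. Although the 3 treated values lay below the untreated ones, all are in the range where the array gives no dependable level, and no fold is given.

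**Figure D2:**
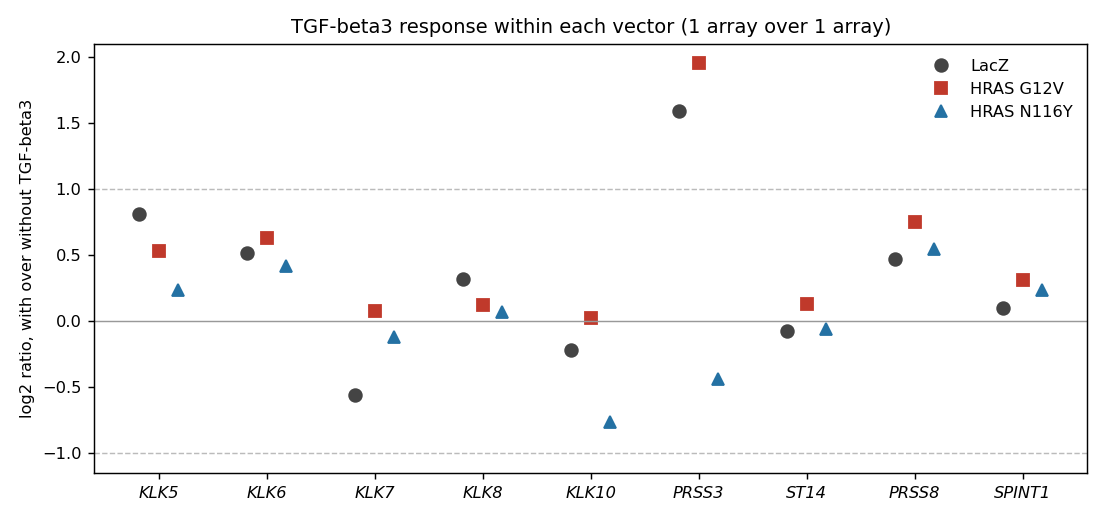
Log2 ratio of the signal with over without TGF-beta3 within each vector for the 9 genes above a signal of 50, with 1 symbol for 1 pair of arrays. Dashed lines are a ratio of 2-fold either way. PRSS3 alone crosses them, at 1.60 with LacZ and 1.95 with HRAS G12V against -0.44 with HRAS N116Y.

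In single pairs of arrays PRSS3 was thus the 1 member at least 2-fold higher with TGF-beta3, in LacZ and in HRAS G12V cells. Of all genes 4.22% and 5.53% were at least 2-fold higher in these pairs, and 4.9% in HRAS N116Y cells, where no member was. No member was at least 2-fold lower, against 4.4%, 4.54% and 4.94% of the genes for LacZ, HRAS G12V and HRAS N116Y. The share of genes whose 3 treated arrays all lay below the untreated ones was 22.2%, and 0 of the 9 tested members did so.

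The second comparison asked what the active and the dominant negative RAS did. With HRAS G12V against LacZ no member passed, as was the case for nearly all genes: 0 of 8982 rose and 4 fell (0% and 0.0445%, limma adjusted p under 0.05), while 305 and 269 had an unadjusted p under 0.05, as 2 members did. The largest estimate was that of KLK7. Its signals were 629.6 with LacZ and 324.0 with HRAS G12V without TGF-beta3, and 427.7 and 341.2 with it. KLK7 was lower with HRAS G12V in both TGF-beta states, as were 29.1% of the genes tested. Its log2 change was -0.64 (95% interval -1.01 to -0.274, limma adjusted p = 0.514). In the fit of these 4 arrays alone, with 1 residual degree of freedom, KLK7 fell by 0.642 and passed (limma adjusted p = 0.0364).

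ST14 read 971.7 and 924.9 with LacZ and 711.0 and 778.2 with HRAS G12V, without and with TGF-beta3, again lower in both states (log2 change -0.35, 95% interval -0.639 to -0.061, limma adjusted p = 0.726). KLK5, KLK6, PRSS8, PRSS3, KLK8, KLK10 and SPINT1 had log2 changes from -0.236 to 0.144. Lower signals with HRAS G12V than with LacZ in both TGF-beta states were seen for 5 of 9 members, KLK7, KLK8, KLK10, ST14 and SPINT1, against 29.1% of the genes tested. With TGF-beta3, KLK10 and SPINT1 were each only 1.02-fold lower. The other KLK10 probe set, which is dim, was higher with HRAS G12V in both states (log2 ratios 0.005 and 0.141). The other SPINT1 probe set was higher without TGF-beta3 (0.321) and lower with it (-0.216). PRSS8 was higher in both states, 1 of 9 against 32.2%. No member was 2-fold apart between these vectors in either state. Of all genes, 0.173% were 2-fold or more up and 0.231% down without TGF-beta3, and 0.25% and 0.341% with it.

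With HRAS N116Y against LacZ again 0 of 9 members passed limma's test, where 1.58% of the genes rose and 0.846% fell. An unadjusted limma p under 0.05 was found for 808 of the 8982 genes upward and 523 downward. It was also found for 4 members, KLK5, KLK6 and KLK8 upward and PRSS3 downward. KLK6 had a log2 change of 0.53 (95% interval 0.115 to 0.941, adjusted p = 0.203), KLK5 one of 0.40 (0.048 to 0.744, adjusted p = 0.267) and KLK8 one of 0.37 (0.079 to 0.669, adjusted p = 0.208). These intervals, which are not adjusted for the number of genes, leave out 0. The signal was higher with HRAS N116Y in both TGF-beta states for 6 of 9 members, KLK5, KLK6, KLK8, ST14, PRSS8 and SPINT1, against 31.4% of the genes, and lower in both for 0 of 9, against 24.6%. PRSS3 had -0.97 (-1.934 to -0.009, adjusted p = 0.334), with log2 ratios of 0.045 without and -1.988 with TGF-beta3. In the fit of these 4 arrays alone PRSS3 passed, with a limma adjusted p = 0.00266, although its log2 ratios of 0.045 and -1.988 lie far apart. The variance in limma's test is drawn toward that of other genes, so this p-value does not show a fall in both TGF-beta states. With TGF-beta3 PRSS3 was the 1 member at least 2-fold lower, as were 1.59% of the genes, while 3.03% were at least 2-fold higher. Without TGF-beta3 no member was 2-fold apart, against 1.18% of the genes higher and 0.738% lower.

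The RAS vectors were also set against each other. KLK7 and KLK8, which are neighbours on the chromosome, were higher with HRAS N116Y than with HRAS G12V by 1.63-fold and 1.53-fold and passed the test. No member fell. Of all genes 3.8% rose and 2.58% fell in this comparison. It shares its arrays with the comparisons against LacZ, so the 3 are not independent.

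KLK7 read 562.2 with HRAS N116Y against 324.0 with HRAS G12V without TGF-beta3, and 519.3 against 341.2 with it. A higher signal in both TGF-beta states was found for 32.8% of the genes tested. For KLK7 the log2 change was 0.70 ± 0.17 SE (limma adjusted p = 0.0329). The other KLK7 probe set read 601.3 against 286.7 and 346.6 against 316.4, so that there the vectors were close under TGF-beta3, and its log2 change of 0.60 did not pass (limma adjusted p = 0.108). KLK8 read 934.6 against 602.5 without and 983.9 against 655.8 with TGF-beta3, also higher in both states. It changed by 0.61 ± 0.13 SE (limma adjusted p = 0.0234). On its other probe set the log2 change was 0.787 and passed (limma adjusted p = 0.0149). With no trend in limma's prior neither gene passed, with an adjusted p = 0.0992 for KLK7 and 0.0835 for KLK8, and KLK7 also failed under quantile normalization (limma adjusted p = 0.0512).

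ST14 came next, with 1045 and 1006 for HRAS N116Y against 711.0 and 778.2 for HRAS G12V, and a log2 change of 0.46 (95% interval 0.174 to 0.752, adjusted p = 0.0644). KLK6 had 0.54 (0.126 to 0.952, adjusted p = 0.122), KLK5 0.37 (0.018 to 0.714, adjusted p = 0.209), SPINT1 0.34 (0.041 to 0.634, adjusted p = 0.174), KLK10 0.38 (-0.009 to 0.769, adjusted p = 0.246) and PRSS8 0.16 (-0.246 to 0.562, adjusted p = 0.659). PRSS3 was the 1 tested member with a negative estimate, -0.88 (-1.844 to 0.081, adjusted p = 0.276).

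In both TGF-beta states KLK5, KLK6, KLK7, KLK8, ST14, PRSS8 and SPINT1 were higher with HRAS N116Y than with HRAS G12V, 7 of 9 against 32.8% of the genes, and 0 of 9 were lower in both, against 29.5%. Under TGF-beta3 PRSS3 was again the 1 member at least 2-fold lower, as were 2.51% of the genes, while 3.73% were at least 2-fold higher. Without TGF-beta3 no member was 2-fold apart, against 2.49% of the genes higher and 1.06% lower.

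The order of the 3 vectors was the same in both TGF-beta states for several members. HRAS G12V was the lowest of the 3 in both states for KLK7, KLK8, ST14 and SPINT1, 4 of 9 against 16.5% of the genes. HRAS N116Y was the highest in both for KLK5, KLK6, KLK8, ST14, PRSS8 and SPINT1, 6 of 9 against 22% of the genes. KLK8, ST14 and SPINT1 showed both, 3 of 9 against 8.63%. For SPINT1 the steps were small, at 475.3, 563.0 and 616.5 untreated and 591.6, 603.1 and 728.6 treated for HRAS G12V, LacZ and HRAS N116Y. Its other probe set gave another order, with 76.2, 61.0 and 88.0 untreated and 83.0, 96.4 and 110.4 treated. The members' median log2 difference between HRAS N116Y and HRAS G12V was 0.38, beside 0.008 over all genes tested. For TGF-beta3 it was 0.219 beside -0.006. All 9 tested members had a signal of at least 50 on each of the 6 arrays, so none entered the test through 1 group alone.

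**Figure D3:**
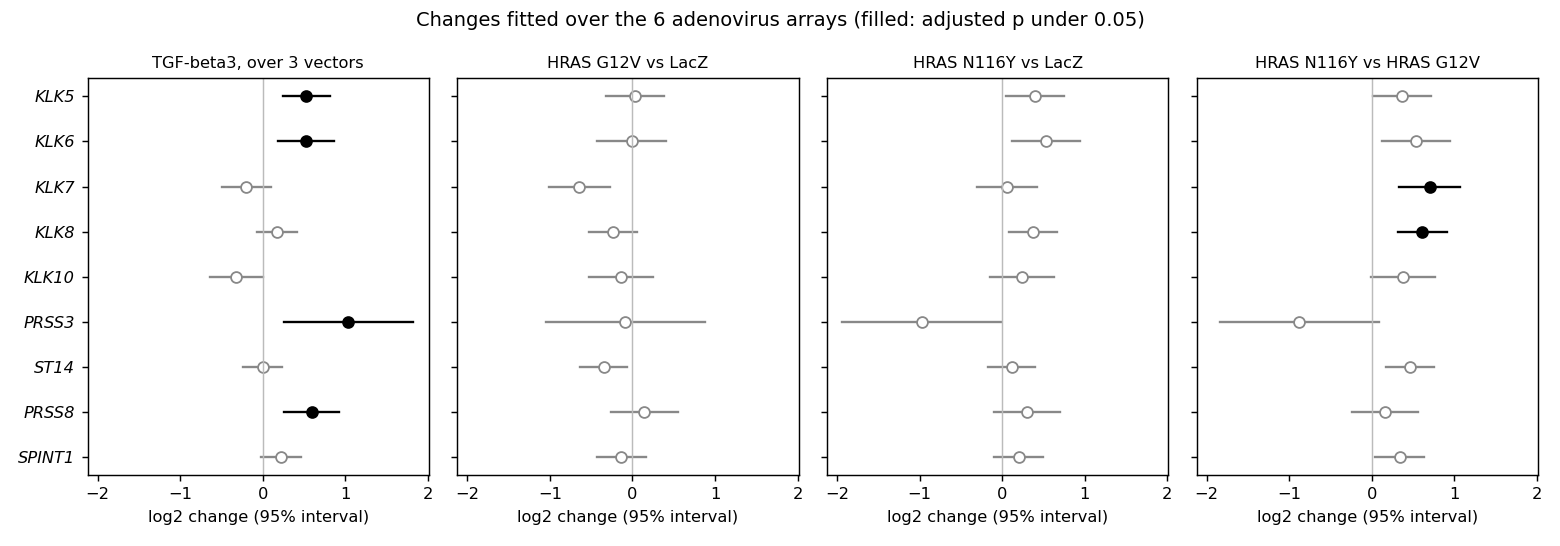
Log2 change with its 95% interval (not adjusted for the number of genes) for the 9 tested genes in the 4 comparisons fitted over the 6 adenovirus arrays. Filled symbols passed limma's test at an adjusted p under 0.05: KLK5, KLK6, PRSS3 and PRSS8 for TGF-beta3, KLK7 and KLK8 between the RAS vectors, and none against LacZ.

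Over the 6 adenovirus arrays KLK6 and PRSS3 had a range of at least 1 on the log2 scale. The genes most like KLK6, among 2298 others with such a range, were RBMS3 (Pearson r = 0.99), OBSL1 (0.989) and RAB40B (0.989). All 3 were higher with TGF-beta3 in each vector and highest in HRAS N116Y cells. For example, OBSL1 read 63.5, 62.2 and 140.2 untreated and 108.8, 116.7 and 216.0 treated for LacZ, HRAS G12V and HRAS N116Y. Those most like PRSS3 were TMEM191A (r = 0.987), RADX (0.983) and LOC100506929 (0.98). RADX, untreated and treated, read 101.1 and 193.9 in LacZ cells, 104.1 and 225.6 in HRAS G12V cells, and 101.5 and 80.7 in HRAS N116Y cells. RBMS3 reached the filter's signal of 50 only with HRAS N116Y, at 58.6 and 110.7. TMEM191A and LOC100506929 reached it only on the treated LacZ and HRAS G12V arrays. All 3 thus entered only through arrays where they were high, and their likeness is given no weight. The genes named were picked for their likeness, so a shared pattern is no separate evidence. These correlations describe 6 arrays that share the 3 vectors and the treatment.

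The third comparison set p53 siRNA against control siRNA, 1 array each, so differences have no replicate check and no test. KLK10 read 418.0 with control siRNA and 87.7 with p53 siRNA, 4.77-fold lower. Its other probe set, which is dim, read 27.0 and 7.8, in the same direction. It was the 1 member at least 2-fold lower, as were 6.16% of all genes, while 2.35% were at least 2-fold higher and no member was. The 3' to 5' actin ratio was alike on these 2 arrays, as given above, and its part in the difference was not tested.

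KLK7 read 176.0 with control siRNA and 343.8 with p53 siRNA, 1.95-fold higher, and 70.2 and 127.9 on its other probe set, 1.82-fold higher. ST14 read 932.0 and 1375, 1.48-fold higher, and 261.0 and 605.9 on a second probe set, 2.32-fold higher. The last ST14 probe set was near 0 on all 8 arrays. KLK6 read 62.0 and 89.9, 1.45-fold higher. KLK5 (546.7 and 490.2), KLK8 (527.0 and 472.7), SPINT1 (306.3 and 273.6), PRSS3 (56.2 and 53.2) and PRSS8 (102.3 and 101.5) were within 1.12-fold of each other, and KLK11 (22.0 and 17.0) was below 50. KLK7 and KLK10, which lie on the same chromosome with KLK8 and KLK9 between them, thus gave opposite readings on these arrays. KLK7 was higher and KLK10 lower with p53 siRNA. KLK8 differed by 1.11-fold, its other probe set reading 64.9 and 78.8.

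**Figure D4:**
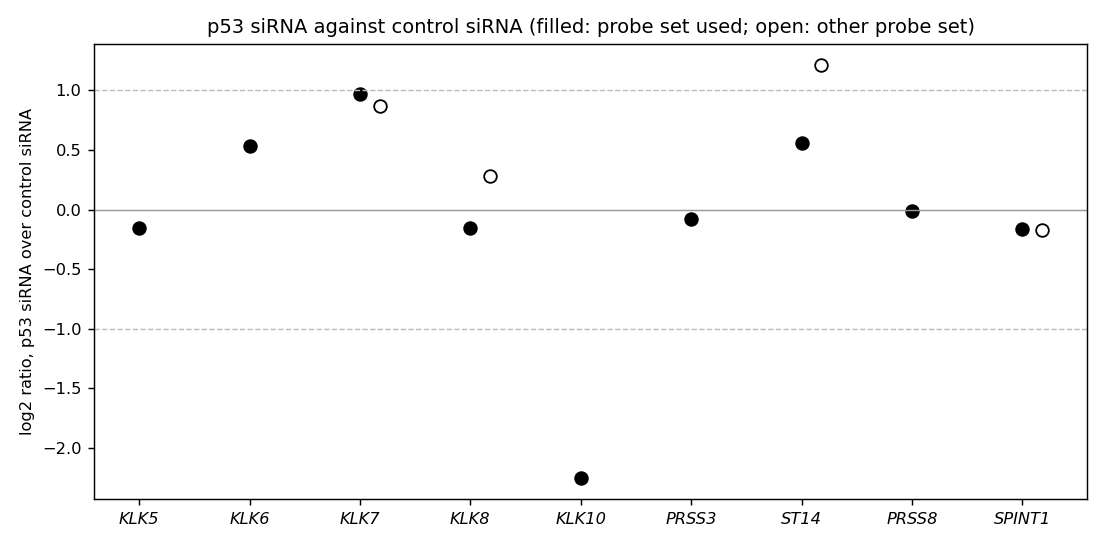
Log2 ratio of p53 siRNA over control siRNA for each probe set with a signal of at least 50 on either array, 1 array over 1 array. Filled symbols are the probe sets used and open ones the others, and dashed lines are a ratio of 2-fold. KLK10 is at -2.25, KLK7 at 0.966 and 0.865, and ST14 at 0.561 and 1.22.

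The wider protease network was described by 4 lists, and its setting by a further list of keratinocyte differentiation genes. Of 9 further kallikreins 8 were measured and 0 passed the filter on dim genes. KLK3 read 25.7 to 55.2, and KLK2, KLK4, KLK13, KLK14 and KLK15 stayed below 23. The kallikreins that passed the filter were thus KLK5, KLK6, KLK7, KLK8 and KLK10.

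Of 21 other membrane-anchored and epithelial serine proteases 18 were measured and 5 tested. With TGF-beta3 3 of the 5 rose and 1 fell, beside 16.3% and 17.4% of all genes tested. FURIN, a convertase that activates many precursors, rose by 1.22 on the log2 scale (adjusted p = 0.000244). PRSS23 rose 2.29-fold (adjusted p = 3.57e-05), and PRSS2 was the other gene called a rise. TMPRSS4, a relative of matriptase, fell by 0.641 (adjusted p = 0.0218). FURIN went from 91.8 to 189.6 in LacZ cells, from 66.6 to 177.2 in HRAS G12V cells and from 56.5 to 131.0 in HRAS N116Y cells. PRSS2, whose signals are given above, reached 50 only on the treated LacZ and HRAS G12V arrays and so entered the test only through arrays where it was high. Its HRAS N116Y signals were both raised to 20, and its call, which is among the 3 rises, is given no weight. In the comparisons of the vectors 0 of the 5 passed limma's test.

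Of 19 other protease inhibitors 16 were measured and 4 tested, SPINT2, SLPI, WFDC2 and TFPI2, with a median log2 change of -0.017 for TGF-beta3. TFPI2, a Kunitz-type inhibitor, rose with TGF-beta3 by 0.62 (adjusted p = 0.0231), from 1484 to 2527 in LacZ cells and from 1290 to 2850 in HRAS G12V cells, whereas in HRAS N116Y cells it read 1057 and 1025. That is the vector in which PRSS3 was not higher either. Between the RAS vectors TFPI2 was lower with HRAS N116Y (log2 change -0.88, adjusted p = 0.0436) and WFDC2 higher (0.75, adjusted p = 0.0361). SPINT2, which encodes HAI-2, the relative of HAI-1, had a log2 change of 0.23 with TGF-beta3 (95% interval -0.027 to 0.483, adjusted p = 0.152). SLPI, an inhibitor of kallikreins and neutrophil elastase, read 336.2 with control siRNA and 166.6 with p53 siRNA, 2.02-fold lower.

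Of 24 listed receptors, substrates and junction targets 21 were measured and 9 tested. With TGF-beta3 2 of the 9 rose and 2 fell, beside 16.3% and 17.4% of all genes tested, and the median log2 change was -0.011. SCNN1A, a subunit of the epithelial sodium channel that prostasin can activate, fell by 1.52 on the log2 scale (adjusted p = 3.51e-05) while PRSS8 rose. It went from 246.8 to 87.2 in LacZ cells, from 161.2 to 61.1 in HRAS G12V cells and from 362.9 to 115.1 in HRAS N116Y cells. FLG, whose product filaggrin is processed by epidermal proteases, fell by 1.32 (adjusted p = 0.001), and EGFR and CDH1 rose by 0.35 (adjusted p = 0.0251) and 0.34 (adjusted p = 0.0358). Between the RAS vectors SCNN1A was higher with HRAS N116Y (1.04, adjusted p = 0.00637), and F2R, a protease-activated receptor, was the 1 called lower (adjusted p = 0.0129). F2R read 20.4 and 19.8 with HRAS N116Y, close to or at the floor of 20, against 52.8 and 64.8 with HRAS G12V and 56.1 and 40.6 with LacZ. It passed the filter only through arrays of the vectors where it was high, so no fold is given and its call is given no weight. The corneodesmosome genes CDSN, DSG1 and DSC1, whose proteins are cut by KLK5 and KLK7, were at or below 9.9 on all 8 arrays.

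The last list held 17 genes of keratinocyte differentiation, of which 15 were measured and 11 tested. With TGF-beta3 4 rose, SPRR1B by 2.68 (adjusted p = 2.51e-06), SPRR1A by 1.79, IVL by 1.37 and OVOL1 by 0.65, and ELF3 fell by 0.805. The median over the 11 was 0.028, beside -0.006 over all genes tested, of which 16.3% rose and 17.4% fell. With HRAS N116Y against LacZ IVL rose by 1.83 (adjusted p = 0.00203) and ELF3 by 1.00 (adjusted p = 0.0073), and SPRR1B was lower, with a log2 change of -1.46 (adjusted p = 0.00347). ELF3, an epithelial transcription factor, was higher with HRAS N116Y than with HRAS G12V by 1.77 (adjusted p = 0.000153), and so was IVL, the cornified envelope gene involucrin, by 1.97 (adjusted p = 0.000607), in the same comparison as KLK7 and KLK8, while SPRR1B was lower by a log2 change of -1.23 (adjusted p = 0.00481). With p53 siRNA IVL was 6.01-fold, ELF3 3.18-fold and SCNN1A 2.93-fold lower, as KLK10 was, and FLG, EGFR and OVOL1 were 2.1-fold, 2.4-fold and 2.25-fold higher. The median log2 ratio over the 9062 genes at 50 on either siRNA array was 0.022.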

How the data were processed

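Biotin-labelled cRNA of 8 HaCaT samples was measured on Affymetrix arrays, 1 a sample, per the labels' protocols. The values deposited by the authors are linear intensity signals, 1 for each probe set, for which the submitters' processing notes name MAS5 5.0. Groups follow the sample titles and the TGF-beta field. The source names of the 6 adenovirus samples give the opposite TGF-beta state, and were set aside.

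Each array was scaled so that its mean, trimmed by 2%, was 100. Values under 20 were raised to 20 before log2 was taken, which shrinks changes of dim genes. Of 54675 probe sets, 41097 had 1 gene symbol, 1801 several and 11777 none, and only the first were used. Of these 41043 were matched to the RefSeq gene table. Where a gene had several, the set brightest on average (mean log2 over 8 arrays) was used.

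In R 4.3.3, limma 3.58.1 fitted vector plus TGF-beta, without interaction and with a trended prior, to the 6 adenovirus arrays. The 8982 genes tested had reached 50 on 2 or more of them. P-values were adjusted by Benjamini-Hochberg over these genes. There were 2 residual degrees of freedom, which also hold the interaction. The fit was tested on simulated data that held no interaction of vector and TGF-beta. That test therefore does not cover genes whose response differs between vectors, such as PRSS3. Pairs of arrays were described by ratios, with a mark at 2-fold.

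The members and lists were chosen with earlier results of these data known. All members were named, with up to 4 genes of each list and comparison, those with the largest change among the genes that passed, and the 3 genes most like each member that varied at least 2-fold. For F2R and PRSS2, dim in some groups, signals are given in place of a change. OVOL1, SLPI, SPINT2, KLK3 and genes named for the siRNA pair or as dim were picked after their values were seen. Some listed genes had no probe set named here and were not analysed here.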

Additional observations from a re-analysis of the deposited data

Results flagged for a closer look

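PRSS3 moved in opposite directions with TGF-beta3 in different vectors, higher with LacZ and with HRAS G12V and lower with HRAS N116Y. The response with HRAS N116Y minus that with LacZ was -2.03 on the log2 scale, and minus that with HRAS G12V it was -2.39. Each response is a ratio of 1 array to 1 array, and the difference was not tested. A difference of at least 1 in either direction was found for 4.3% of the genes in the first case and for 5.22% in the second.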

How the results depend on the processing

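Of 374 tests of a member under another setting, 336 kept their direction and their side of the threshold, 26 lost a call, 7 gained one and 5 changed sign. With no filter on dim genes, 0 members and 0 genes passed in any comparison. For TGF-beta3, 4 members rose as reported, 5 with averaged probe sets and 5 with second probe sets, 1 without the vector in the model, and 1 to 4 when a pair of arrays was left out, with 0 to 1 falling. Between the RAS vectors, 2 members rose as reported, 1 under quantile normalization, 1 when a gene's probe sets were averaged, 1 with the second probe set of each member, 0 with no trend in the prior and 0 without the TGF-beta state. Fits of only the 4 arrays of the vectors compared called 1 falling member in each of the 3 comparisons of vectors. It was KLK7 with HRAS G12V against LacZ, and PRSS3 with HRAS N116Y against LacZ and against HRAS G12V. Between the RAS vectors the PRSS3 log2 ratio was 0.314 without and -2.077 with TGF-beta3, so this call does not show a fall in both states. With the second probe set, 1 member was at least 2-fold higher with p53 siRNA and 0 lower. The signs that changed belonged to values near 0: ST14 with TGF-beta3 at -0.011 under quantile normalization and -0.063 to 0.038 when a pair was left out, negative without the HRAS G12V pair, SPINT1 with HRAS G12V at 0.053 on its second probe set, and KLK7 with HRAS N116Y against LacZ at -0.017 with probe sets averaged and -0.091 on its second. The cause was not tested.

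PRSS3 passed for TGF-beta3 in 4 of 12 alternatives, KLK6 in 8, KLK5 in 9 and PRSS8 in 10. Between the RAS vectors KLK8 passed in 7 of 10 and KLK7 in 4. The second probe sets were added as an alternative after the data were seen.

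Over all genes, the 1466 rising with TGF-beta3 became 953 without the vector in the model. With HRAS G12V against LacZ, the 4 falling genes became 2, 1, 2, 2 and 2 under quantile normalization, a floor of 50, a filter of 100, averaged probe sets and no trend, and 62 rose and 65 fell in the fit of 4 arrays. With HRAS N116Y against LacZ, the 142 rising and 76 falling genes became 47 and 26 with averaged probe sets, 75 and 32 with no trend, and 275 and 157 in the fit of 4 arrays, and 50 fell with a floor of 50. Between the RAS vectors, the 341 and 232 became 148 and 71 with averaged probe sets, and the falling genes became 109 with no trend and 354 in the fit of 4 arrays. Without the TGF-beta state, 0 genes passed in the comparisons of vectors. No paired analysis was possible because each group holds 1 array and the labels give no replicate numbers, so the only matching is by vector, which the reported TGF-beta3 fit already includes. With 1 array a group, the number of arrays limits what can be detected.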
